A study of Mus musculus with 20 samples.

Results

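The 10 genes described here encode factors that deliver the initiator tRNA and choose the start codon: eIF1 (Eif1), the α and β subunits of eIF2 (Eif2s1 and Eif2s2), the separate factor eIF2A (Eif2a), the 5 subunits of eIF2B (Eif2b1 to Eif2b5) and eIF5 (Eif5). They were taken by symbol from the deposited table of 38784 genes, which held all 10. Their RNA and ribosome footprints were followed in livers of FVB/N mice. Mice aged 6 to 8 weeks received lipid nanoparticles loaded with siRNA through the tail vein, at a dose of 0.5 mg/kg and a schedule of 1 injection in 5 days. The siRNA targeted Eif3m, the gene of the m subunit of initiation factor eIF3, or was a scrambled luciferase control, so control mice also received nanoparticles and an siRNA. Day 9 livers came from 3 mice given Eif3m siRNA and 3 given control siRNA, day 13 livers from 2 and 2, and each mouse gave 1 RNA library and 1 footprint library. Footprints are pieces of mRNA protected by a ribosome, and their counts depend on the amount of a message and on how densely ribosomes sit on it. For RNA, KAPA mRNA capture was used at day 9 and NeoPrep at day 13, so kit and day cannot be told apart there, whereas ART-seq was used for the footprints of both days. The labels give the mice of each day their own series of identifiers, so the day and the series of animals cannot be told apart in either assay.

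As background, eIF2 with GTP binds the initiator methionyl-tRNA in the ternary complex and brings it to the small ribosomal subunit, where it scans the mRNA together with eIF1, eIF1A, eIF3 and eIF5. eIF1 holds the complex in its scanning state and keeps it from settling on poor start codons. eIF5 stimulates GTP hydrolysis by eIF2, and it also touches eIF1, eIF3 and the β subunit of eIF2. eIF2B then exchanges GDP for GTP on eIF2. Its ε and γ subunits (Eif2b5 and Eif2b3) carry the catalytic side, and its α, β and δ subunits (Eif2b1, Eif2b2 and Eif2b4) sense phosphorylated eIF2α, which inhibits the exchange. eIF2A, despite its name, is a single-chain protein unrelated to the α subunit of eIF2.

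Total counts in M (mega-) ran from 27.4 to 39.0 M in day 9 RNA libraries, from 4.96 to 26.4 M in day 13 RNA libraries, from 4.50 to 7.69 M in day 9 footprint libraries and from 1.64 to 6.52 M in day 13 footprint libraries. Levels are CPM, counts per M counts of the library after TMM scaling within each assay. Eif3m itself was at 7.74 CPM with Eif3m siRNA and 74.6 CPM with control siRNA in day 9 RNA, and at 4.09 CPM with Eif3m siRNA and 77.7 CPM with control siRNA in day 13 footprints. The 5 hepatocyte markers (Alb, Ttr, Apoa1, Serpina1a and Cyp2e1) together held 97119 to 124145 CPM with Eif3m siRNA and 162467 to 195911 CPM with control siRNA in day 9 footprints, and 107128 to 139149 CPM with Eif3m siRNA and 231920 to 235700 CPM with control siRNA at day 13. Of these 5, 3 fell in footprints at each day. Alb made up most of these sums. It averaged 96530 CPM with Eif3m siRNA and 152730 CPM with control siRNA in day 9 footprints. Serpina1a had the higher RNA mean with Eif3m siRNA at both days, 352 against 312 CPM at day 9 and 4909 against 3838 CPM at day 13. The 5 Kupffer cell and macrophage markers summed to 77.4 to 87.3 CPM with Eif3m siRNA and 169.6 to 195.6 CPM with control siRNA in day 9 footprints, and to 45.7 to 57.3 CPM with Eif3m siRNA and 108.5 to 146.0 CPM with control siRNA at day 13. In this macrophage list 3 markers fell and 1 rose in day 9 footprints, 2 fell at day 13, and Cd163 was at 0 in a day 13 Eif3m library. Clec4f held the largest part of the sums, 42.7 CPM with Eif3m siRNA and 137 CPM with control siRNA in day 9 footprints. There Adgre1 (9.26 against 7.53 CPM) and Cd68 (24.0 against 13.3 CPM) had the higher mean with Eif3m siRNA. In day 13 RNA 12 of all 23 cell type markers fell and 0 rose: 4 of 5 macrophage, 2 of 5 hepatocyte, 2 of 3 endothelial, 2 of 3 stellate cell and 2 of 2 erythroid markers. There the hepatocyte markers summed to 135181 to 196107 CPM with Eif3m siRNA and 254820 to 296681 CPM with control siRNA. Ptprc, a general leukocyte gene listed with the lymphocyte markers Cd3e and Cd79a, rose at day 9 in RNA (log2 change 0.61) and in footprints (0.73). Cd3e and Cd79a were not called there. In day 9 RNA they averaged 1.03 and 0.34 CPM with Eif3m siRNA, against 0.99 and 0.99 CPM with control siRNA. At day 13 Ptprc averaged 12.6 CPM with Eif3m siRNA and 16.4 CPM with control siRNA in footprints, and was not called. The part of these shifts in the values below was not tested, and in whole liver fewer cells of a type and less RNA per cell cannot be told apart.

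The 250 bases before the transcription start are shown for 3 genes. Eif5 changed in RNA and footprints at both days, and held no match to a motif searched. Eif1 and Eif2s1 are shown because they held a match to the motif of NRF1, a factor that binds many housekeeping promoters. Members without a match, among them others that were called, were searched but are not shown, so the motif is not tied to the changes. The sequences come from RefSeq on GRCm38.p6, 5′ to 3′ on the strand of the gene, at chr12:111537851-111538100 (+) for Eif5, chr11:100319699-100319948 (+) for Eif1 and chr12:78861822-78862071 (+) for Eif2s1, and capitals mark the motif match.
Eif5: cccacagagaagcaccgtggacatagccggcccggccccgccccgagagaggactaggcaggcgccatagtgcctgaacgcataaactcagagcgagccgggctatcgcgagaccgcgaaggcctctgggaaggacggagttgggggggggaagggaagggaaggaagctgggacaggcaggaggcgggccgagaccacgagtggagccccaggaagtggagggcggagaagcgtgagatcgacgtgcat
Eif1: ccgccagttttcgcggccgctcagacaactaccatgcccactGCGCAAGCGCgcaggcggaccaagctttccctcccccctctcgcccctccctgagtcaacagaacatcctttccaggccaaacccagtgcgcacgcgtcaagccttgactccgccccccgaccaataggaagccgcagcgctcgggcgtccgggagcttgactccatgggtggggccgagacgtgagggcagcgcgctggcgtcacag
Eif2s1: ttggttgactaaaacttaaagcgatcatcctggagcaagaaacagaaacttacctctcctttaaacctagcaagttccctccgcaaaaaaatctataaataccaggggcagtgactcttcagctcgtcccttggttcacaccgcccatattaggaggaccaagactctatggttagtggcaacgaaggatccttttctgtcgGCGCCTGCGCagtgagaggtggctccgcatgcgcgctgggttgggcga
The motif, whose letters are the capitals above with the sixth position free when read on the strand of the motif, was searched on both strands. It lies 208 bases before the start of Eif1 on the strand shown and 48 bases before the start of Eif2s1 on the opposite strand. It was present in 2 of the 9 members with a promoter in the table, and in 3.74% of all 32851 promoters of the same length. Also searched were the ETS motif CCGGAAG (6.91% of all promoters), the cyclic AMP response element TGACGTCA (1.55%) and the C/EBP-ATF element TGATGNAA (3.45%), and each was found in 0 of 9 members. These motifs were chosen after the sequences were seen, and a match is a run of letters, not a measured binding site. Eif2b3 had no promoter entry.

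With Eif3m siRNA, 4 of the 10 factors rose in day 9 footprints (Eif1, Eif2b4, Eif2b5 and Eif5) and 4 in day 13 footprints (Eif2b3, Eif2b4, Eif2b5 and Eif5), and none of the 10 fell. Among all 12213 genes tested, 6.84% rose and 7.9% fell at day 9, and 6.12% rose and 6.26% fell at day 13. In RNA only Eif5 rose at day 9, where 2.48% of 16444 genes rose and 3.19% fell, and 4 factors rose at day 13 (Eif2s1, Eif2s2, Eif2b3 and Eif5), where 6.09% of genes rose and 9.87% fell. Again none of the 10 fell. Eif5 was the only member called in all 4 comparisons, and Eif2a, Eif2b1 and Eif2b2 were called in none of them. The median log2 change of the 10 factors was 0.41 in day 9 footprints and 0.49 in day 13 footprints, beside 0.02 and 0.02 for all genes. It was 0.21 in day 9 RNA and 0.43 in day 13 RNA, beside -0.00 and -0.16 for all genes. A gene was called at an adjusted p below 0.05 in edgeR's quasi-likelihood test over all genes of the assay. Scaled by library totals alone, all 10 estimates were above 0 in both assays and at both days, against 8 to 9 of 10 with TMM, and 6 members were called in day 9 footprints and 7 at day 13, where 18.8% and 16.4% of all genes rose under that scaling. It put the median of all genes at 0.25 and 0.34 in footprints of days 9 and 13, and at 0.12 and 0.00 in RNA.

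The Eif3m libraries all lay above the control libraries for 4 factors in day 9 footprints (15.7% of all genes), for 8 in day 13 footprints (28.1%), for 5 in day 9 RNA (18.9%) and for 5 in day 13 RNA (18%). Single libraries moved the estimates and the calls in edgeR. Without 1 day 13 library a group holds 1 mouse, so log2 changes are given. In day 13 footprints they ran, over each library left out, from 0.83 to 1.58 for Eif2b3 and 0.47 to 0.82 for Eif2b4. For Eif2b5 they ran from 0.53 to 1.01 and for Eif5 from 0.93 to 1.45. In day 13 RNA they ran from 0.59 to 0.98 for Eif2s1 and 0.60 to 0.77 for Eif2s2. For Eif2b3 they ran from 0.68 to 0.95 and for Eif5 from 1.02 to 1.39. The calls lost are named with each factor. In day 9 RNA Eif5 was lost, leaving 0, without any of 4 day 9 libraries named with its values. In these fits 0.751% to 1.08% of all genes rose, against 2.48%. Day 9 RNA calls also moved without a day 13 library, since the days share the estimate of spread.

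**Figure D1:**
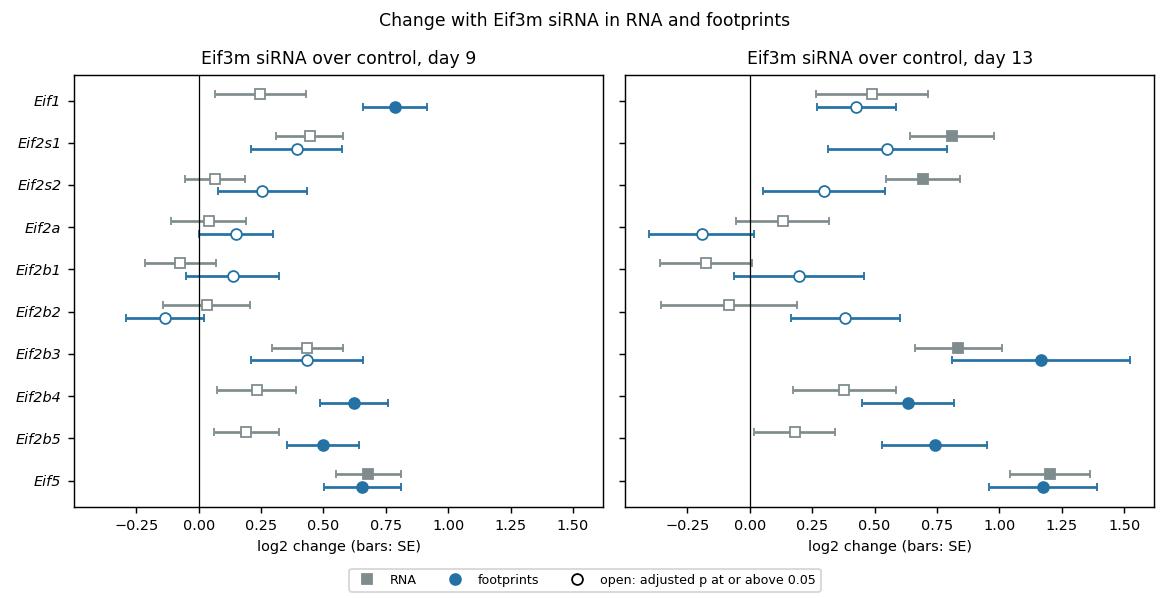
Log2 change of each factor with Eif3m siRNA over control siRNA at day 9 (left) and day 13 (right), RNA as squares and footprints as circles, with bars of 1 SE; filled symbols passed an adjusted p of 0.05. Eif5 is filled in both assays at both days, Eif1 in day 9 footprints alone, and Eif2a, Eif2b1 and Eif2b2 are unfilled throughout.

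Eif5, which encodes the GTPase-activating protein of eIF2, had 118.9, 135 and 128 CPM with Eif3m siRNA in day 9 RNA, against 76.4, 83.8 and 78.1 CPM with control siRNA. In day 9 footprints it had 93.8, 138 and 116 CPM with Eif3m siRNA, against 70.0, 82.4 and 68.6 CPM with control siRNA. Every Eif3m library lay above every control library in both assays. In day 13 RNA Eif5 had 436 and 472 CPM with Eif3m siRNA, against 171 and 223 CPM with control siRNA. In day 13 footprints it had 109.9 and 87.6 CPM with Eif3m siRNA, against 51.1 and 35.7 CPM with control siRNA. The groups were again apart in both assays, with the Eif3m libraries at about the level of day 9 in footprints and the control libraries below it.

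The log2 change of Eif5 was 0.68 in day 9 RNA (SE 0.13, adjusted p = 0.0111) and 0.66 in day 9 footprints (SE 0.16, adjusted p = 0.00679), a 1.60-fold and a 1.58-fold level. At day 13 it was 1.20 in RNA (SE 0.16, adjusted p = 0.000521) and 1.18 in footprints (SE 0.22, adjusted p = 0.00118), a 2.30-fold and a 2.26-fold level. The RNA and footprint changes of Eif5 were thus of like size at each day, and the efficiency (footprint change minus RNA change) was -0.04 at day 9 (SE 0.22) and -0.12 at day 13 (SE 0.29). The increase of the change between the days, 0.52 in RNA (SE 0.21, adjusted p = 0.212) and 0.52 in footprints (SE 0.27, adjusted p = 0.446), did not pass. The day 9 RNA call was lost in edgeR when any of 4 libraries was left out: Eif3m replicate 2 (adjusted p = 0.072), Eif3m replicate 3 (0.0522), control replicate 1 (0.0641) or control replicate 3 (0.0701). The other 3 calls of Eif5 held with every library left out in turn and under every other setting tried.

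A second row of the table, LOC102641436, held the same value as Eif5 in all 10 footprint libraries. In day 9 RNA Eif5 was 0.142% to 0.046% below it, and in day 13 RNA 13.9% to 14.8% above it. Whether the counting divided the reads of a shared sequence between these rows or counted them for both was not tested, so the level of Eif5 in CPM is uncertain. With both rows summed, an alternative chosen after seeing the data, the log2 changes were 0.68 and 1.20 in RNA and 0.66 and 1.18 in footprints, all still called (adjusted p from 0.000604 to 0.0124 in edgeR). A small nucleolar RNA gene, Snora28, also lies within Eif5, and the sources used here do not state the strand rule of the counting.

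**Figure D2:**
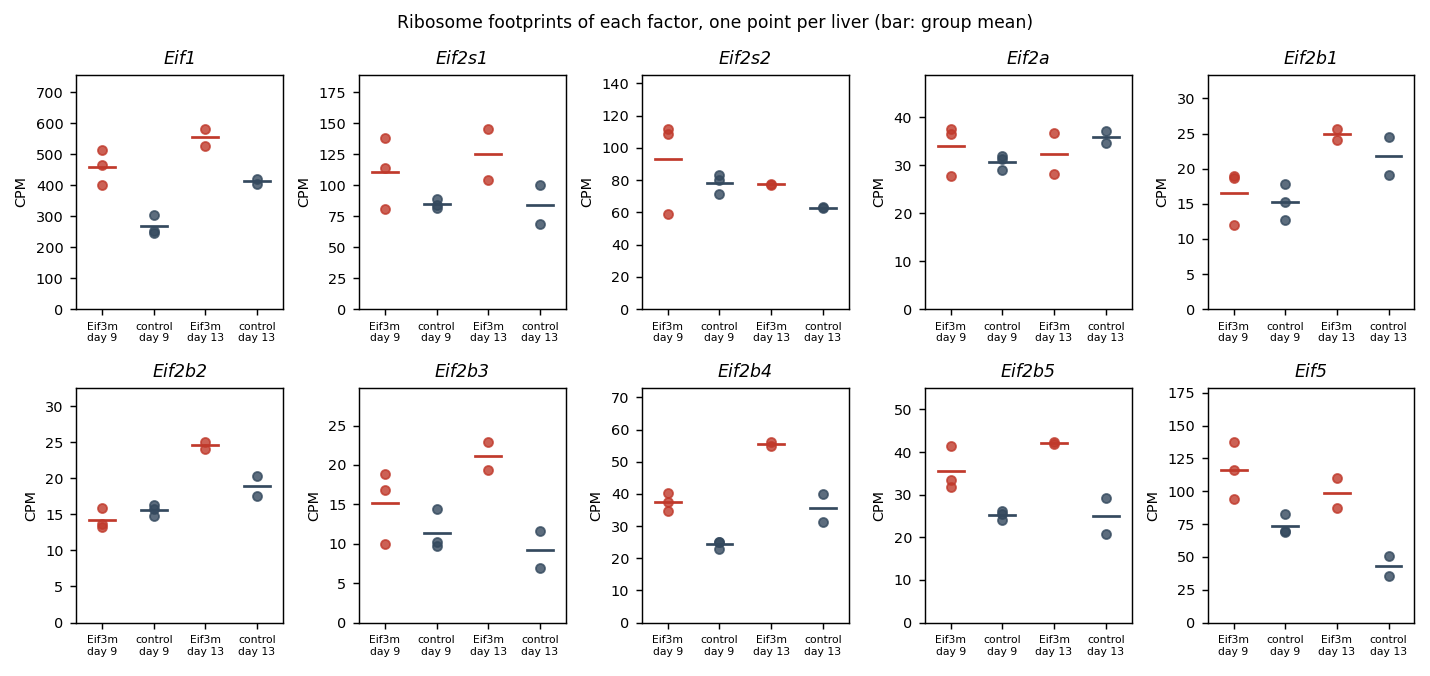
Footprint level (CPM) of each factor in every library, 1 panel a gene with its own scale, Eif3m siRNA left of control siRNA at day 9 (3 mice a group) and day 13 (2 mice a group); bars mark group means. For Eif5 all Eif3m libraries lie above all control libraries at both days, whereas for Eif2a and Eif2b1 the groups overlap at both days.

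Eif1, the keeper of start-codon stringency, rose in day 9 footprints. It had 466, 402 and 512 CPM with Eif3m siRNA, against 247, 251 and 303 CPM with control siRNA. The lowest Eif3m library was above the highest control library, and the log2 change was 0.79 (SE 0.13, adjusted p = 0.000332), a 1.72-fold level. This call held with each library left out and under every other setting. In day 9 RNA Eif1 had 197, 170 and 220 CPM with Eif3m siRNA, against 170, 164 and 160 CPM with control siRNA, so the groups overlapped (log2 change 0.25, SE 0.18, adjusted p = 0.497).

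Footprints of Eif1 per RNA in the same liver were 2.36, 2.37 and 2.33 with Eif3m siRNA at day 9, against 1.45, 1.53 and 1.89 with control siRNA. The groups did not overlap, but the share of all genes whose ratios separate like this was not counted. The efficiency change of 0.53 (SE 0.23) had an unadjusted p of 0.0313 and an adjusted p of 1 in edgeR. The adjusted p ran from 0.433 to 1 over the alternatives. At day 13 the ratios were 0.810 and 0.823 with Eif3m siRNA, against 1.15 and 0.682 with control siRNA, so that the Eif3m livers lay between the control livers and the efficiency change was -0.14 (SE 0.28, adjusted p = 0.949). The difference between the days, -0.67 (SE 0.37), did not pass either (adjusted p = 0.92). Day 13 footprints of Eif1 were 582 and 526 CPM with Eif3m siRNA, against 405 and 419 CPM with control siRNA. These groups were apart, but the log2 change of 0.43 was not called in edgeR over all footprint libraries (SE 0.16, adjusted p = 0.087). It was called in edgeR with day 13 fitted alone (adjusted p = 0.0426), with library totals (0.00132) and without day 9 Eif3m replicate 1 (0.0486). In day 13 RNA Eif1 had 719 and 639 CPM with Eif3m siRNA, against 353 and 614 CPM with control siRNA, with a log2 change of 0.49 (SE 0.22, adjusted p = 0.154). Without day 13 control replicate 2, the control library nearer to the Eif3m values, the RNA change was 0.93 and called (adjusted p = 0.00304 in edgeR).

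**Figure D3:**
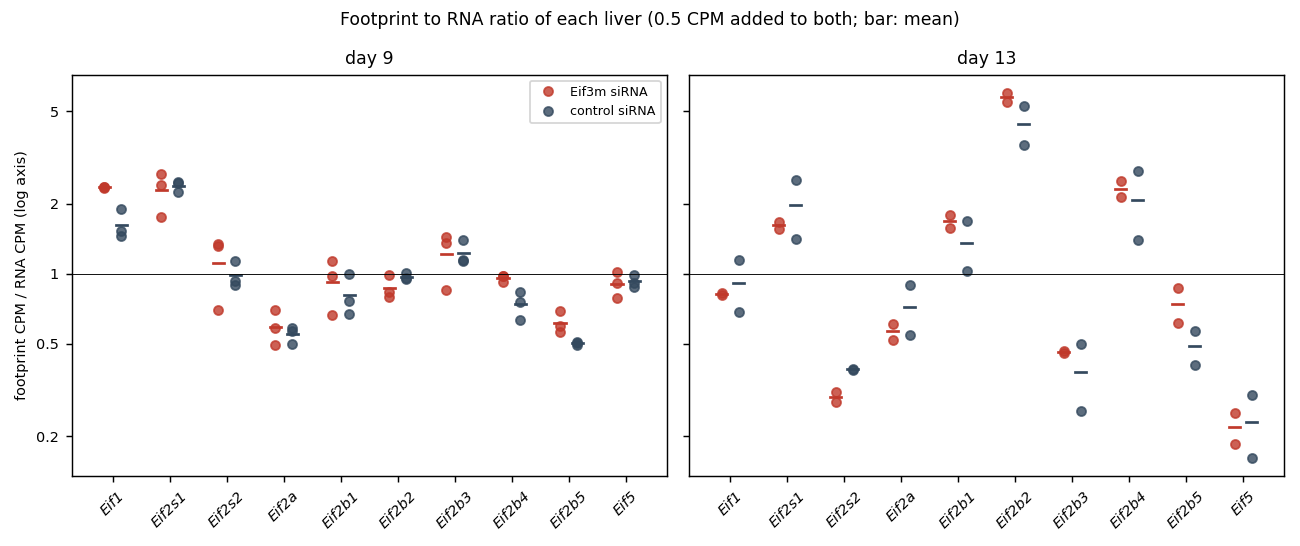
Footprints per RNA in the same liver for each factor, 0.5 CPM added to both, on a log axis, Eif3m siRNA left of control siRNA at day 9 (left) and day 13 (right), with bars at group means. For Eif1 the 3 Eif3m livers of day 9 lie between 2.33 and 2.37 and above all 3 control livers, while at day 13 both Eif3m livers lie between the control livers. How many of all genes separate in this way was not counted.

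The RNA of the α and β subunits of eIF2 rose at day 13. Eif2s1, whose product is phosphorylated by the stress kinases that slow initiation, had 86.7 and 66.7 CPM with Eif3m siRNA, against 39.2 and 48.8 CPM with control siRNA, a log2 change of 0.81 (SE 0.17, adjusted p = 0.00698). Eif2s2, whose product binds eIF5 and eIF2B, had 279.5 and 248 CPM with Eif3m siRNA, against 163 and 163 CPM with control siRNA, a log2 change of 0.70 (SE 0.15, adjusted p = 0.00794). The groups were apart in both genes. Without day 13 Eif3m replicate 1 the Eif2s1 change was 0.59 and no longer called (adjusted p = 0.0582), while Eif2s2 stayed called with each library left out.

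At day 9 the RNA changes of these subunits were smaller in estimate. Eif2s1 had 46.1, 51.0 and 46.7 CPM with Eif3m siRNA, against 35.8, 33.8 and 36.1 CPM with control siRNA. These groups did not overlap, and the log2 change of 0.44 (SE 0.13) missed the threshold in edgeR (adjusted p = 0.0727) but was called with DESeq2, with library totals, with day 9 fitted alone and with any 1 of the 4 day 13 libraries left out. Eif2s2 had 84.8, 83.5 and 82.2 CPM with Eif3m siRNA, against 89.3, 76.6 and 73.4 CPM with control siRNA, so the Eif3m livers lay inside the control range (log2 change 0.07, SE 0.12). The difference of the Eif2s2 RNA change between the days was 0.63 (SE 0.19), with an unadjusted p of 0.00557 and an adjusted p of 0.112 in edgeR, and DESeq2 called it.

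Footprints of Eif2s1 and Eif2s2 were not called at either day in edgeR over all footprint libraries. Eif2s1 had 81.0, 138 and 114 CPM with Eif3m siRNA in day 9 footprints, against 88.5, 84.4 and 81.3 CPM with control siRNA (log2 change 0.39, SE 0.18, adjusted p = 0.166). Eif2s2 had 59.0, 112 and 108 CPM with Eif3m siRNA, against 80.2, 71.4 and 83.1 CPM with control siRNA (log2 change 0.26, SE 0.18, adjusted p = 0.373). In both genes Eif3m replicate 1 was below every control library and the other two were above every control library. At day 13 Eif2s1 had 145 and 104 CPM with Eif3m siRNA, against 99.8 and 68.7 CPM with control siRNA (log2 change 0.55, SE 0.24, adjusted p = 0.158; called with library totals, 0.017, and with no filter on low counts, 0.0259). Eif2s2 had 77.9 and 77.1 CPM with Eif3m siRNA, against 62.7 and 63.4 CPM with control siRNA (log2 change 0.30, SE 0.24, adjusted p = 0.495). Both genes were thus higher in each Eif3m library of day 13, as were 28.1% of all genes tested. Footprints of Eif2s2 per RNA were 0.280 and 0.312 with Eif3m siRNA at day 13, against 0.385 and 0.391 with control siRNA, an efficiency change of -0.48 that was not called (SE 0.29, adjusted p = 0.618).

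Day 9 Eif3m replicate 1, the shallowest day 9 footprint library at 4.50 M, held the lowest footprint level of its group for 7 of the 10 factors, and for 37.7% of all genes tested. Day 13 Eif3m replicate 2 was the lower of its pair for 7 of 10 factors in footprints, where it was the deepest library of its day at 6.52 M (47.8% of all genes), and for 8 of 10 in RNA, where it was the shallowest at 4.96 M (59.5% of all genes). Without day 9 Eif3m replicate 1, 7 members were called in day 9 footprints, with Eif2s1, Eif2s2 and Eif2b3 added to the 4, while 8.35% of all genes rose in that fit. The part of depth in these values was not tested.

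**Figure D4:**
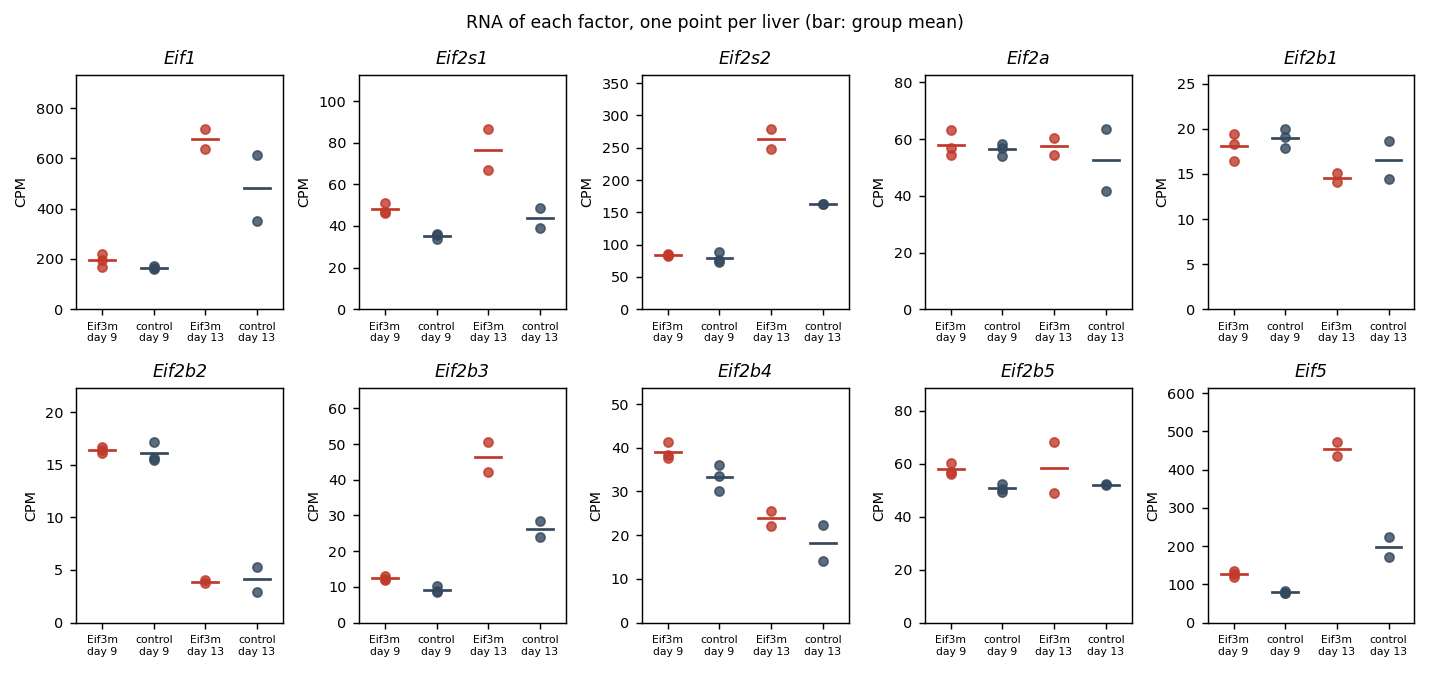
RNA level (CPM) of each factor in every library, drawn like the footprint levels, Eif3m siRNA left of control siRNA at each day; the kit differs between the days, so levels are to be read within a day. Eif2s1, Eif2s2, Eif2b3 and Eif5 are higher in both Eif3m libraries than in both control libraries of day 13.

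Eif2a, whose product can deliver initiator tRNA outside the eIF2 route, was called in no comparison over all libraries. It had 27.7, 37.6 and 36.6 CPM with Eif3m siRNA in day 9 footprints, against 31.9, 28.9 and 31.4 CPM with control siRNA, and 36.7 and 28.2 CPM with Eif3m siRNA at day 13, against 37.1 and 34.6 CPM with control siRNA. Its groups overlapped in both assays at both days. The log2 changes were 0.15 (SE 0.15) and -0.19 (SE 0.21) in footprints, and 0.04 (SE 0.15) and 0.13 (SE 0.19) in RNA. Without day 13 control replicate 2 the day 13 RNA change was 0.46 and called (adjusted p = 0.0469 in edgeR). The neighbouring gene Serp1 shares bases with Eif2a in the RefSeq annotation, so reads there may belong to either gene.

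Of the catalytic subunits of eIF2B, Eif2b5 (ε) rose in footprints at both days. It had 31.7, 41.4 and 33.5 CPM with Eif3m siRNA in day 9 footprints, against 26.2, 24.1 and 25.4 CPM with control siRNA, and 41.8 and 42.4 CPM with Eif3m siRNA at day 13, against 20.9 and 29.3 CPM with control siRNA. The groups were apart at both days, with log2 changes of 0.50 (SE 0.15, adjusted p = 0.0251) and 0.74 (SE 0.21, adjusted p = 0.0245). Its RNA differed less, with log2 changes of 0.19 at day 9 (SE 0.13, adjusted p = 0.453) and 0.18 at day 13 (SE 0.16, adjusted p = 0.486). Footprints of Eif2b5 per RNA were 0.560, 0.689 and 0.599 with Eif3m siRNA at day 9, against 0.505, 0.493 and 0.510 with control siRNA, and 0.615 and 0.869 with Eif3m siRNA at day 13, against 0.405 and 0.569 with control siRNA. Every Eif3m liver was above every control liver at its day, but the share of all genes whose ratios separate like this was not counted. The efficiency changes of 0.30 (SE 0.19, adjusted p = 1) and 0.48 (SE 0.26, adjusted p = 0.547) were not called.

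The footprint calls of Eif2b5 sat close to the threshold. At day 9 the call was lost with DESeq2 (adjusted p = 0.0601), and in edgeR without Eif3m replicate 2 (log2 change 0.39, adjusted p = 0.124) or any 1 of the 3 control libraries (adjusted p from 0.0548 to 0.101). At day 13 it was lost with DESeq2 (0.0568), and in edgeR without either Eif3m library (0.0579 and 0.163) or without control replicate 1 (log2 change 0.53, adjusted p = 0.276).

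Eif2b3 (γ) rose at day 13 in RNA and in footprints. It had 50.6 and 42.1 CPM with Eif3m siRNA in day 13 RNA, against 23.8 and 28.3 CPM with control siRNA (log2 change 0.84, SE 0.17, adjusted p = 0.0071). In day 13 footprints it had 22.9 and 19.4 CPM with Eif3m siRNA, against 11.6 and 6.92 CPM with control siRNA (log2 change 1.17, SE 0.36, adjusted p = 0.0382). The groups were apart in both assays, but the control footprint values rest on 20 and 13 counts, and the footprint call was lost in edgeR without any 1 of the 4 day 13 libraries (log2 change from 0.83 to 1.58, adjusted p from 0.0634 to 0.322). The RNA call was lost without day 13 Eif3m replicate 1 (log2 change 0.68, adjusted p = 0.0553). At day 9 Eif2b3 had 11.8, 13.0 and 12.2 CPM with Eif3m siRNA in RNA, against 10.2, 8.44 and 8.78 CPM with control siRNA, apart but not called in edgeR (log2 change 0.44, SE 0.14, adjusted p = 0.0952). This change was called with DESeq2 (adjusted p = 0.0343), with library totals (0.0373), with day 9 fitted alone (0.0157) and without either day 13 control library (0.0295 and 0.0296). In day 9 footprints it had 9.97, 18.9 and 16.8 CPM with Eif3m siRNA, against 14.4, 9.65 and 10.2 CPM with control siRNA, with overlap (log2 change 0.43, SE 0.22, adjusted p = 0.211).

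Among the regulatory subunits of eIF2B, Eif2b4 (δ) rose in footprints at both days. It had 40.3, 34.6 and 37.5 CPM with Eif3m siRNA in day 9 footprints, against 22.7, 25.1 and 25.1 CPM with control siRNA, and 56.1 and 54.9 CPM with Eif3m siRNA at day 13, against 31.3 and 40.0 CPM with control siRNA. The groups were apart at both days, with log2 changes of 0.62 (SE 0.14, adjusted p = 0.00384) and 0.63 (SE 0.18, adjusted p = 0.028). The day 9 call held under every alternative. The day 13 call was lost with DESeq2 (adjusted p = 0.0734), and in edgeR without either Eif3m library (0.0793 and 0.152) or without control replicate 1 (log2 change 0.47, adjusted p = 0.273). In day 9 RNA Eif2b4 had 41.3, 37.6 and 38.3 CPM with Eif3m siRNA, against 36.1, 30.2 and 33.5 CPM with control siRNA, a log2 change of 0.23 (SE 0.16, adjusted p = 0.455). In day 13 RNA it had 22.1 and 25.6 CPM with Eif3m siRNA, against 22.3 and 14.1 CPM with control siRNA, a log2 change of 0.38 (SE 0.21, adjusted p = 0.234). Without day 13 control replicate 1 it was 0.74 and called (adjusted p = 0.0145 in edgeR). Footprints of Eif2b4 per RNA were 0.975, 0.920 and 0.982 with Eif3m siRNA at day 9, against 0.635, 0.833 and 0.754 with control siRNA. The livers of the groups did not overlap, but the share of all genes whose ratios separate like this was not counted. The efficiency change of 0.38 (SE 0.21, unadjusted p = 0.0794, adjusted p = 1 in edgeR) was not called.

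Eif2b1 (α) and Eif2b2 (β), the other regulatory subunits, were called in neither assay at either day with TMM scaling. Eif2b1 had 12.0, 18.7 and 18.9 CPM with Eif3m siRNA in day 9 footprints, against 15.2, 12.7 and 17.8 CPM with control siRNA, and 24.1 and 25.7 CPM with Eif3m siRNA at day 13, against 19.1 and 24.5 CPM with control siRNA. Its log2 changes were 0.14 (SE 0.19) and 0.20 (SE 0.26) in footprints and -0.07 (SE 0.14) and -0.18 (SE 0.19) in RNA. Eif2b2 had 15.9, 13.2 and 13.7 CPM with Eif3m siRNA in day 9 footprints, against 16.2, 15.7 and 14.8 CPM with control siRNA, and 24.1 and 25.01 CPM with Eif3m siRNA at day 13, against 20.3 and 17.6 CPM with control siRNA. The day 9 groups of Eif2b2 overlapped and the day 13 groups did not, with log2 changes of -0.13 (SE 0.16) and 0.38 (SE 0.22, adjusted p = 0.295; called with library totals, 0.0325). The RNA of Eif2b2 was at 16.2 to 16.7 CPM with Eif3m siRNA and 15.4 to 17.2 CPM with control siRNA at day 9, and at 3.76 to 4.00 CPM with Eif3m siRNA and 2.95 to 5.33 CPM with control siRNA at day 13, when 1 Eif3m library held 20 counts. Both siRNA groups of Eif2b2 RNA were lower in the day 13 libraries, made with the other kit, while both footprint groups were not.

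Across the 3 possible efficiency comparisons (day 9, day 13 and their difference), 0 of the 10 factors passed in edgeR, and 0 with DESeq2. At an unadjusted p below 0.05 there was 1 at day 9 (Eif1), 0 at day 13 and 0 for the difference. Over all 14236 genes tested, 0% passed at day 9, 0.0211% at day 13 and 0% for the difference, so the absence of calls among the factors is that of nearly all genes. The difference of the siRNA effect between the days called 0 of the 10 factors in RNA (2 at an unadjusted p below 0.05, Eif2s2 and Eif5; 1 with DESeq2; Eif5 without day 13 control replicate 2, adjusted p = 0.0286) and 0 in footprints (0 at an unadjusted p below 0.05; 0 with DESeq2), against 1.23% and 0.819% of all genes.

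Footprint levels were also compared between the day 13 and day 9 livers within each siRNA, where the kit was the same but the series of animals differed, so these values cannot be read as an effect of time alone. Cell type markers also differed between the series. In control footprints 2 of 2 erythroid and 1 of 3 stellate cell markers were called higher at day 13, and 2 of 5 macrophage markers lower. There Hba-a1 averaged 1504 CPM at day 13 and 178 CPM at day 9, and Cd163 1.11 and 11.1 CPM. With Eif3m siRNA 1 marker was called higher, of hepatocytes, and 5 lower: 3 macrophage, 1 hepatocyte and 1 lymphocyte marker. Control footprints of the 3 stellate cell markers differed unevenly. Col1a1 averaged 103.7 CPM at day 13 and 12.3 CPM at day 9, Dcn 281 and 218 CPM, and Lrat 18.7 and 18.0 CPM. In control RNA, where the kit differed, Col1a1 averaged 4.37 CPM at day 13 and 9.37 CPM at day 9. With Eif3m siRNA, 2 factors were higher at day 13 than at day 9, Eif2b2 (log2 change 0.80, SE 0.18, adjusted p = 0.00382) and Eif2b4 (0.57, SE 0.15, adjusted p = 0.0128), where 10.2% of all genes were. With control siRNA, Eif1 (0.63, SE 0.14, adjusted p = 0.00827) and Eif2b4 (0.55, SE 0.17, adjusted p = 0.0445) were higher at day 13, where 5.47% of all genes were, and Eif5 was lower (-0.77, SE 0.20, adjusted p = 0.0181), where 4.88% were. For Eif1 and Eif5 the 2 sets of control livers thus differed, while the same change with Eif3m siRNA was 0.27 for Eif1 (SE 0.14, adjusted p = 0.199) and -0.25 for Eif5 (SE 0.18, adjusted p = 0.351). The footprint effects of the siRNA did not pass the test of their difference between the days in either gene (Eif1 adjusted p = 0.496, Eif5 0.446). None of these 5 day calls of a factor held under every alternative. Without day 13 control replicate 2, no factor was called between the control days and Eif5 was at -0.53 (adjusted p = 0.292), and without day 13 Eif3m replicate 2 none was called between the Eif3m days. Eif1 was also lost without day 13 control replicate 1 (adjusted p = 0.0604), Eif5 without day 9 control replicate 2 (0.0664), and Eif2b4 with Eif3m siRNA without day 13 Eif3m replicate 1 (0.0545). Eif2b4 with control siRNA was lost in 11 of 14 alternatives.

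Of 13 other genes of the pathway, 3 rose in day 9 footprints, 0 in day 13 footprints, 1 in day 9 RNA and 6 in day 13 RNA in edgeR. In the same order 6.84%, 6.12%, 2.48% and 6.09% of all genes rose. None of the 13 fell with Eif3m siRNA over control siRNA. In day 13 footprints 4 of them had an unadjusted p below 0.05, and DESeq2 also called 0. DESeq2 called 2 in day 9 footprints, 2 in day 9 RNA and 9 in day 13 RNA, all higher, the last with Eif2s3x, Eif5b and Bzw1 added. With DESeq2 4.57%, 4.27% and 9.16% of all genes rose there. In edgeR 3 of the 13 estimates were below 0 in footprints at each day, 3 in day 9 RNA and 1 in day 13 RNA. Mcts1 averaged 24.5 CPM with Eif3m siRNA and 32.8 CPM with control siRNA in day 9 footprints, and 12.5 and 16.3 CPM at day 13. Between days, edgeR called 2 of the 13 lower in day 13 footprints with Eif3m siRNA, where 1065 of 12213 genes were. With control siRNA it called 1 of the 13 lower, where 4.88% of all genes were. DESeq2 called Eif1ad and Mcts1 lower at day 13 with Eif3m siRNA, and Mcts1 with control siRNA. In day 9 footprints edgeR called Eif1b, a close relative of Eif1 (log2 change 0.80, adjusted p = 0.0141), Eif2d, which can deliver tRNA without eIF2 (0.62, adjusted p = 0.00808), and Bzw2, an eIF5 mimic (0.68, adjusted p = 0.0272), of which DESeq2 did not call Bzw2. Eif1b carries the same fold of protein as Eif1, and its day 9 RNA change was 0.17 (adjusted p = 0.637). In RNA the recycling factor Abce1 rose at day 9 (0.56, adjusted p = 0.0336) and day 13 (0.66, adjusted p = 0.0191). Also higher in day 13 RNA were Eif1ax, which encodes eIF1A (0.75, adjusted p = 0.00829), Denr, a partner in ribosome recycling (0.89, adjusted p = 0.00626), Bzw2 (0.98, adjusted p = 0.00573), Eif1ad (0.87, adjusted p = 0.00737) and Eif2d (0.45, adjusted p = 0.0428). The γ subunit of eIF2, Eif2s3x, which binds the tRNA and GTP, was not called in edgeR: its log2 changes were 0.30 and 0.33 in RNA and 0.20 and 0.55 in footprints at days 9 and 13, and it has a near-identical copy, Eif2s3y, with which reads could be shared.

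The genes whose footprints followed a factor most closely over the 10 footprint libraries were found among 8719 genes with a mean of at least 5 CPM. The measure was the root mean square difference of log2 CPM, each gene centred on its own mean. For Eif1 the closest were Dohh (0.116), Dhrsx (0.146) and Eif2b4 (0.154), beside a median of 0.519 over all genes. For Eif2s1 they were Appl1 (0.129), Smco4 (0.132) and Med21 (0.137), beside a median of 0.454. For Eif5, after the row of equal values, they were Agpat9 (0.123) and Nudt5 (0.178), beside a median of 0.629. Within the 10 factors Eif1 and Eif2b4 were the closest pair, and Eif2b1 and Eif5 were the farthest apart (0.699). All these values share the same 10 libraries, their depth and their scaling. Levels of different factors were not set against each other, since coding lengths were not used here.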

How the data were processed

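RNA-seq and ribosome profiling libraries were made from livers of 10 mice, 20 libraries in all. The deposited values are expected counts per gene symbol; per the submitters' processing notes cutadapt, Bowtie and Bowtie2 were used, with versions, genome build and counting rule not given in the sources used here. Not whole are 44.31% of the entries above 0, and 100% are multiples of 1 over 6 within 0.01.

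Counts were rounded. Each assay had its own edgeR 4.0.16 fit (limma 3.58.1, R 4.3.3) over 4 groups of siRNA and day, with filterByExpr, TMM within the assay and the robust quasi-likelihood test, two-sided, Benjamini-Hochberg adjusted over all genes at a threshold of 0.05. There were 11 comparisons. SEs are the log2 change over the square root of F. Efficiency, footprint minus RNA change, came from a joint model of the 20 libraries without pairing. Deviations from the group mean of RNA and footprint libraries with the same animal identifier correlated at r from 0.134 to 0.521. Libraries of different animals were not compared in this way, and at day 13 the 2 mice of a group give the same value by construction. Replicates are libraries labelled as separate; the labels do not say how the mice were allotted, and where samples share a source the p-values measure only the spread between these libraries. Over 16 replicate pairs, r on log CPM ran from 0.959 to 0.995 and the chi-square per gene from 3.85 to 84.7, so no library was a copy.

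Alternatives were DESeq2 size factors, library totals, no filter beyond 1 count, DESeq2 1.42.0, each day fitted alone, a replicate block (for efficiency, the animal) and each library left out; summing Eif5 with the row of equal values was added after seeing the data. The fits were also run on simulated counts with the same spread for all genes and the same means at both days. That setting is simpler than these livers, and its outcome is not reported here. All 10 factors are named in the siRNA comparisons of RNA and footprints at each day. For efficiency and between days, counts of calls are given for all 10 and values for some. Named as well are the other pathway genes that edgeR called between siRNAs, and the 3 closest genes for Eif1, Eif5 and Eif2s1. The factors, lists, motifs and tests were chosen with earlier results of these data known.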

Additional observations from a re-analysis of the deposited data

How the results depend on the processing

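No call of a factor changed direction under the alternatives run. Of the 13 calls of a factor between siRNAs, 6 held under all: Eif5 in day 13 RNA and in footprints of both days, Eif1 and Eif2b4 in day 9 footprints, and Eif2s2 in day 13 RNA. Where a call was lost, the cause was not tested.

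Factors called in day 9 RNA were 3 with library totals, with DESeq2 and with the day fitted alone, against 1. Of all genes 5.36%, 4.27% and 10.5% rose there, against 2.48%. In day 13 footprints 7 factors were called with library totals, 2 with DESeq2 and 1 with the replicate block, against 4. Of all genes 16.4%, 4.38% and 4.94% rose there, against 6.12%. For the RNA difference between days DESeq2 called 1 factor, against 0, where 1.93% of all genes were called higher, against 0.341%. Over all genes, day 9 RNA called 1583 with no filter, 1592 with DESeq2 and 3445 fitted alone, against 932; day 13 RNA called 969 fitted alone, against 2625. The RNA difference called 1034 with no filter, 703 with DESeq2 and 61 with the block, against 202. With library totals footprints called 2753 at day 9, against 1800, and 2358 at day 13, against 1513. The share of rises among the called footprints was then 83.6% and 85.1%, against 46.4% and 49.4%, and in RNA 70.8% and 59.7%, against 43.7% and 38.2%; DESeq2 size factors gave 49.1% in day 13 RNA and 42.5% for the RNA difference, against 27.7%, and library totals gave 38.9% between the control days, against 52.8%. The footprint difference called 242 with no filter and 62 with the block, against 100. Efficiency called 18 with no filter, 4 with DESeq2, 4 fitted alone and 8 with the block at day 9, against 0. At day 13 it called 5 with DESeq2 size factors, 63 with library totals, 145 with no filter, 23 with DESeq2, 1 fitted alone and 12 with the block, against 3. The difference called 7 with no filter, 4 with DESeq2 and 5 with the block, against 0.

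With each library left out, calls ran from 292 to 2366 genes and 0 to 3 factors in day 9 RNA, 1336 to 4265 and 2 to 6 in day 13 RNA, 0 to 2065 and 0 to 1 for the RNA difference, 1129 to 2179 and 3 to 7 in day 9 footprints, 429 to 1875 and 1 to 5 in day 13 footprints, and 7 to 172 and 0 for the footprint difference. Between days they ran from 343 to 2951 and 0 to 3 with Eif3m siRNA, and 322 to 1654 and 0 to 3 with control siRNA. Efficiency ran from 0 to 5 genes at day 9, 0 to 438 at day 13 and 0 to 59 for the difference.

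Equal replicate numbers in the siRNA groups name different mice. Deviations from the group mean at day 9 correlated at r from -0.149 to 0.239 between equal numbers. Between unequal numbers r ran from -0.137 to 0.145. At day 13, with 2 mice a group, equal and unequal numbers differ only in the sign of r by construction. These values cannot decide whether equal numbers are paired. With the replicate block the calls of Eif2b5 in day 9 footprints (adjusted p = 0.0509) and of Eif2b3 (0.0638), Eif2b4 (0.062) and Eif2b5 (0.0508) in day 13 footprints were lost in edgeR, and no other factor's call changed. With 2 mice a group at day 13 and shallow libraries, changes of factors with few footprint counts are weakly measured.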
